A study of Mus musculus with 2 samples.

Results

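The Prame-like genes of the mouse were examined for binding by the DNA-binding part of Dux in a chromatin immunoprecipitation sequencing (ChIP-seq) experiment. Members were taken as every gene of the RefSeq table for GRCm38.p6, the mm10 assembly, whose symbol begins with Pramel followed by a digit. This gave 47 genes of the 49980 with a position, 46 of them protein-coding and 1, *Pramel28*, a pseudogene. The naming rule uses symbols alone, while the family itself was picked with earlier results of these data known. The cells were C2C12, an established line of mouse myoblasts, of a single clone with a doxycycline-inducible MMH transgene, a chimera of codon-altered mouse Dux through its homeodomains and the carboxy-terminal part of codon-altered human DUX4. In both groups the cells carried this transgene and were induced with 2 ug/ml doxycycline for 18 h. The groups were 1 library precipitated with a mix of the antisera MO488 and MO489, which recognise DUX4, and 1 control library, whose antibody is anti-HA in the sample labels but GFP in the series' design text. After removal of duplicates, the peak caller used 26253175 fragments of the antisera library and 23412256 of the control library. With 1 library per group there was no replicate and no test between groups, and the error given is a 95% Poisson interval that covers counting error alone. No uninduced or transgene-free cells were analysed here. The myoblast identity of the cells cannot be checked from a list of binding sites.

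Dux and DUX4 are double-homeodomain transcription factors that switch on genes of the early embryo. The Prame-like family encodes leucine-rich-repeat proteins related to the human tumour antigen PRAME, which serves as a substrate receptor of a cullin-2 ubiquitin ligase. Its members lie in tandem clusters of similar copies and are known mainly from germ cells, oocytes and preimplantation embryos. Human PRAMEF genes are known targets of DUX4.

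Short stretches of promoter sequence are given for the copies the results below turn on. They come from the RefSeq promoter table, which was built on GRCm38.p6 and gives 250 bases before to 50 bases after a transcript start. It had an entry for 37 of the 47 genes. Each stretch is written 5′ to 3′ on the strand of its gene. Capitals mark matches to the core of the mouse Dux site, GATTNAATC, on either strand, with at most 1 mismatch in its fixed letters. The summit is base 17 of the *Pramel17* stretch and base 13 of those of *Pramel31*, *Pramel24*, *Pramel11*, *Pramel32* and *Pramel46*, and the stretches of *Pramel20* and *Pramel49* hold no summit. *Pramel17* (chr4:101844125-101844157, minus strand), *Pramel31* (chr4:144357759-144357848, plus strand) and *Pramel20* (chr4:143567313-143567382, plus strand) are shown because they are the members whose promoter held the exact core. *Pramel24* (chr4:143719282-143719325, plus strand) and *Pramel11* (chr4:143900510-143900546, minus strand) are shown as a pair of similar copies with nearly equal peaks. *Pramel32* (chr4:88634263-88634307, minus strand) had a summit nearest to its start. *Pramel46* (chr5:95272851-95272997, minus strand) and *Pramel49* (chr5:95594958-95595041, minus strand) have nearly identical promoter windows (99.7%). Of these, *Pramel46* had a peak and *Pramel49* had none. The *Pramel49* stretch is shorter because it was cut around the matches alone, and its window continues upstream.
Pramel17: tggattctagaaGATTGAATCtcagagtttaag
Pramel31: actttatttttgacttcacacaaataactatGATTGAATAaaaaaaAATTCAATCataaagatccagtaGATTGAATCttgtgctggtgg
Pramel20: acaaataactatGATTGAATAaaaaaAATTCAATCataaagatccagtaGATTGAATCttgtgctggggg
Pramel24: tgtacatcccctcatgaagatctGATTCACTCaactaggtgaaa
Pramel11: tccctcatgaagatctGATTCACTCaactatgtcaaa
Pramel32: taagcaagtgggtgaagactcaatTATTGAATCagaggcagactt
Pramel46: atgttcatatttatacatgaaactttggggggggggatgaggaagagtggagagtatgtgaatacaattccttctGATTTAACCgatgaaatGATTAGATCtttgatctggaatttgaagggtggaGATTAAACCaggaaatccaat
Pramel49: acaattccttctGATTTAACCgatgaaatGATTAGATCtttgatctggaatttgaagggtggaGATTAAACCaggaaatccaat

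A peak summit lay inside or within 5 kb of 28 of the 47 genes (59.6%), against 43.2% of all 21900 protein-coding genes and 33.4% of all 49980 positioned genes. Protein-coding genes whose length lay within the range of the family, 2703 to 60692 bp, had one in 37% of cases. The 28 genes held 62 different peaks, of which 1 served both *Pramel43* and *Pramel44*, whose spans overlap. The pileup, which counts the fragments of the antisera library that cover the summit, and the fold enrichment over local background are the peak caller's own values for each peak, as the authors deposited them. Taking the peak of highest pileup at each gene, the median over the 28 genes, with the shared peak counted at both of its genes, was 85 fragments (range 22 to 1097), against a median of 59 for protein-coding genes with a peak. Median fold enrichment of these best peaks was 16.8, against 11.6 for protein-coding genes with a peak. A best pileup of 100 or more was found at 12 of the 47 genes (25.5%), against 12.3% of all protein-coding genes. Genes that lie side by side in a cluster share similar sequence, and the sources used here do not say how reads that map to several places were handled. The pileup of a single copy is therefore uncertain, and the copies are not independent cases.

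**Figure D1:**
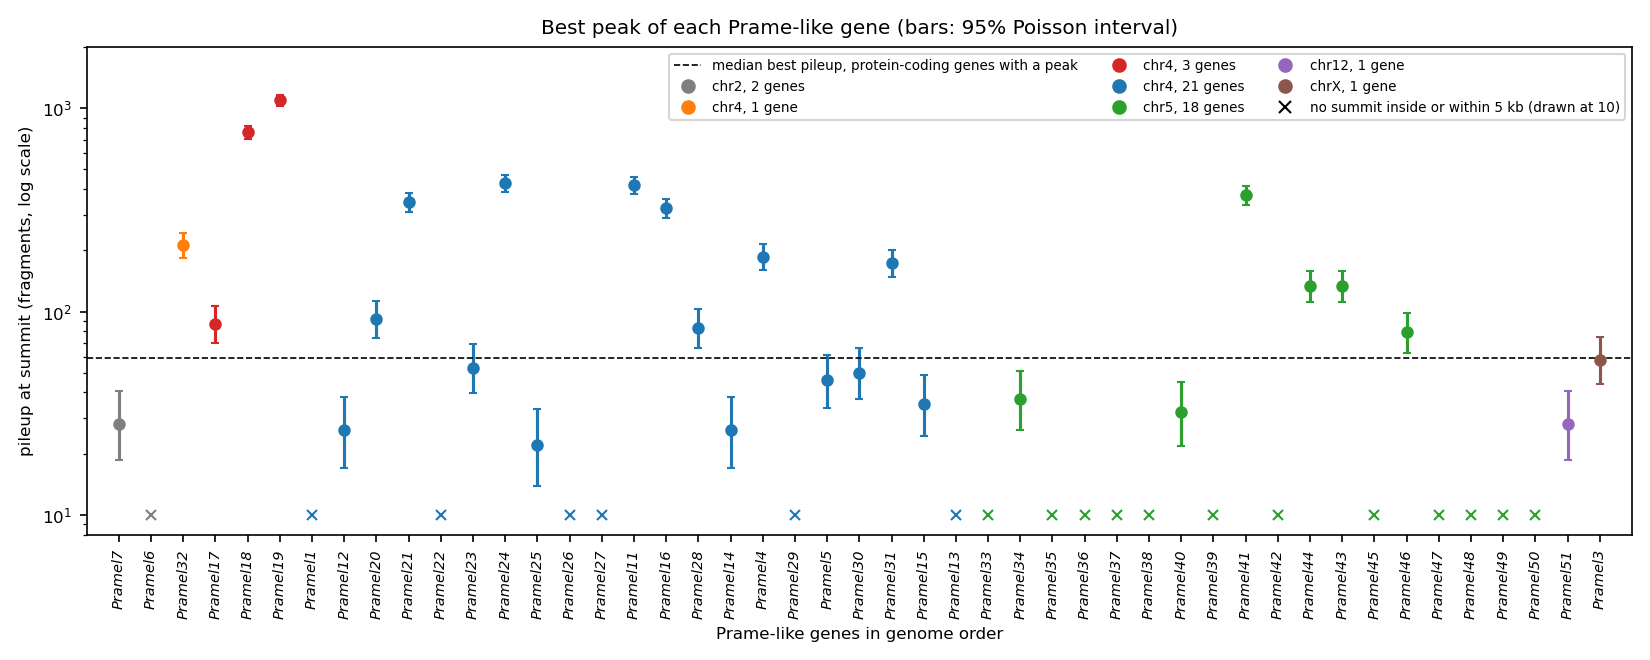
Pileup at the summit of the best peak (fragments, log scale) for each of the 47 Prame-like genes in genome order, with 95% Poisson intervals as bars, colours for genomic clusters and crosses for the 19 genes with no summit inside or within 5 kb. *Pramel19* (1097) and *Pramel18* (761) stand highest, and the dashed line is the median of 59 for protein-coding genes with a peak.

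The 47 genes fell into 7 clusters, taking genes under 1 Mb apart as a cluster. The largest lay on chromosome 4 (chr4:143394441-144408467), where 15 of 21 genes (71.4%) had a peak. The next lay on chromosome 5 (chr5:93481827-95736173), where 6 of 18 genes (33.3%) had one. All 3 genes of a second chromosome 4 cluster (chr4:101834969-101943183) had a peak, as did the lone genes *Pramel32* on chromosome 4, *Pramel51* on chromosome 12 and *Pramel3* on chromosome X. On chromosome 2, *Pramel7* had a peak and *Pramel6* had none. The chromosome 4 cluster of 21 genes held 67.4 peaks per Mb, against 24.7 over the whole chromosome, while the chromosome 5 cluster held 18.5 per Mb, against 19.0 over the whole chromosome. Counted per gene, the median best pileup was 83 fragments (range 22 to 428) in the large chromosome 4 cluster and 106 (32 to 373) in the chromosome 5 cluster. With the peak shared by *Pramel43* and *Pramel44* counted once, the chromosome 5 median was 79, so the order of the clusters turned on that 1 peak. Their ranges overlapped widely.

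The strongest peaks lay in the 3-gene cluster on chromosome 4. *Pramel19* had a pileup of 1097 fragments (interval 1030 to 1160), the 19th highest of all 51356 peaks, over 3042 bp at chr4:101936353-101939394. Its summit lay 2100 bp upstream of the transcript start, outside the promoter window. *Pramel18*, the neighbouring copy, had 761 fragments (708 to 817), rank 36, over 1463 bp at chr4:101906572-101908034, with the summit 2110 bp outside the nearer gene end. The intervals of these pileups did not overlap, yet fold enrichment ran the other way, at 143 for *Pramel19* and 152 for *Pramel18*, over a local background of 6.69 fragments at *Pramel19* and of 4.01 at *Pramel18*. The third gene of the cluster, *Pramel17*, had 87 fragments (69.7 to 107) and 17.6-fold enrichment in a peak of 539 bp, far below its neighbours. A second peak of 174 fragments lay inside *Pramel19*, 1467 bp after its start. At *Pramel18*, the other 4 peaks had pileups of 17 to 65 fragments, and 2 of them stood over local backgrounds of 11.21 and 10.09, the highest at any member.

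In the large chromosome 4 cluster, *Pramel24* and *Pramel11* led. *Pramel24* had 428 fragments (388 to 471) and 85.4-fold enrichment at chr4:143718651-143719643, and *Pramel11* had 419 (380 to 461) and 83.8-fold at chr4:143899674-143901327. The summits lay 157 bp upstream of the start at *Pramel24* and 154 bp upstream at *Pramel11*, so the copies matched in height within counting error and in position within a few bases. Peak length differed, with 993 bp at *Pramel24* and 1654 bp at *Pramel11*. *Pramel24* had 8 peaks in all, the most of any member, and its second, of 203 fragments, lay 2644 bp upstream. *Pramel11* likewise had a second strong peak upstream, of 157 fragments and 4952 bp from the start.

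*Pramel21* had 346 fragments (310 to 384) and 69.2-fold enrichment in a peak of 1438 bp at chr4:143611863-143613300, with the summit 2559 bp upstream of the start. *Pramel16* had 322 fragments (288 to 359) and 64.4-fold enrichment over 2883 bp at chr4:143953269-143956151, and its summit lay 4204 bp upstream. These pileups had overlapping intervals. *Pramel4* differed in position, with 186 fragments (160 to 215) and 37.3-fold enrichment over 1826 bp at chr4:144061691-144063516 and a summit 3445 bp downstream of the start, inside the gene. *Pramel31* had 173 fragments (148 to 201) and 34.7-fold enrichment over 1799 bp at chr4:144356654-144358452, with its summit 193 bp upstream. The remaining genes of the cluster with a peak were *Pramel20* (92 fragments), the pseudogene *Pramel28* (83), *Pramel23* (53), *Pramel30* (50), *Pramel5* (46), *Pramel15* (35), *Pramel12* (26), *Pramel14* (26) and *Pramel25* (22). No summit lay inside or within 5 kb of *Pramel1*, *Pramel13*, *Pramel22*, *Pramel26*, *Pramel27* or *Pramel29*. *Pramel1* and *Pramel13* are known from male germ cells.

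On chromosome 5, *Pramel41* stood apart with 373 fragments (336 to 413) and 74.6-fold enrichment at chr5:94443419-94444118, inside the gene. It also had 4 weaker peaks, of 144, 93, 73 and 28 fragments. *Pramel43* and the overlapping *Pramel44* shared a peak of 133 fragments (111 to 158) and 26.7-fold enrichment at chr5:94616244-94617019, 188 bp upstream of the *Pramel43* start. *Pramel46* had 79 fragments (62.5 to 98.5), 230 bp upstream of its start. *Pramel34* had 37 and *Pramel40* had 32 fragments, both below the median of protein-coding genes with a peak. The 12 genes with no summit inside or within 5 kb were *Pramel33*, *Pramel35*, *Pramel36*, *Pramel37*, *Pramel38*, *Pramel39*, *Pramel42*, *Pramel45*, *Pramel47*, *Pramel48*, *Pramel49* and *Pramel50*. For 9 of these 12 the nearest summit lay more than 40 kb away, up to 201584 bp from *Pramel37*. No gene outside this cluster was that far from a summit.

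The lone genes and *Pramel7* of the chromosome 2 cluster varied. *Pramel32* on chromosome 4 had 212 fragments (184 to 243) and 38.7-fold enrichment in a peak of 1805 bp at chr4:88632811-88634615, with the summit 109 bp upstream of its start. *Pramel3* on the X chromosome had 58 fragments (44.0 to 75.0) and 11.8-fold enrichment at chrX:135304974-135305382, inside the gene, 2858 bp after its start. *Pramel7*, which acts in pluripotent cells of the early embryo, had 28 fragments (18.6 to 40.5) and 5.78-fold enrichment at chr2:87490306-87490596, inside the gene, 1955 bp after its start. *Pramel51* on chromosome 12 also had 28 fragments (18.6 to 40.5), with 5.48-fold enrichment at chr12:88181960-88182290, 278 bp outside the gene. *Pramel32* was thus well above these 3 genes, whose best peaks were below the median of protein-coding genes with a peak. Taking the nearest summit of each gene, those just inside the 5 kb limit were at *Pramel14* (3510 bp) and *Pramel40* (3443 bp), and those just outside it were at *Pramel13* (9431 bp) and *Pramel48* (9955 bp).

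At some members the best summit lay in a narrow interval just upstream of the transcript start. Of the 37 genes in the promoter table, 8 (21.6%) had a summit within the 300 bp promoter window, against 1.15% of all 32851 windows of the table and 1.35% of its 27025 genes. These were *Pramel11*, *Pramel17*, *Pramel23*, *Pramel24*, *Pramel31*, *Pramel32*, *Pramel43* and *Pramel46*. All 8 summits lay upstream, 109 to 230 bp before the start, with a median position of -155.5 bp, and each was the best peak of its gene. Pileups there ranged from 53 at *Pramel23* to 428 at *Pramel24*, with a median of 153. The other 13 genes with a peak and a known strand had a median of 50 fragments, although the range reached 1097 at *Pramel19*. Their best summits were spread from 4204 bp upstream of the start at *Pramel16* to 22652 bp downstream at *Pramel40*. Windows with a summit occurred in 4 of 19 on the large chromosome 4 cluster and in 2 of 12 on the chromosome 5 cluster, with the others at *Pramel17* and *Pramel32*.

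**Figure D2:**
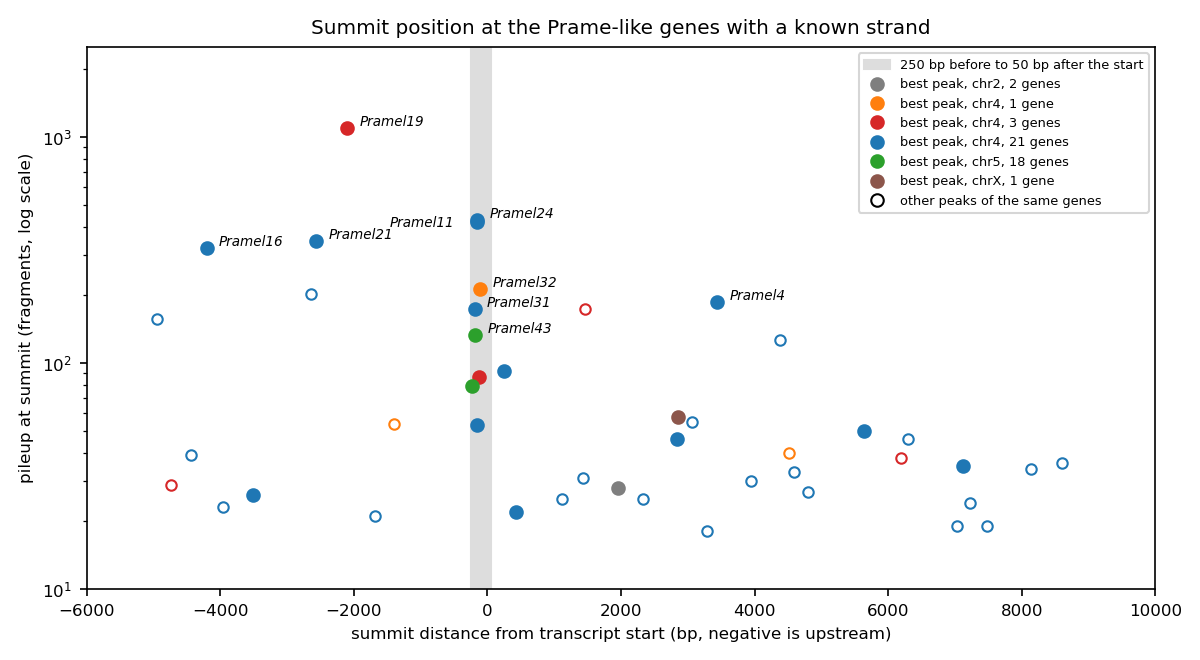
Pileup at each summit (fragments, log scale, vertical axis) by its distance from the transcript start (bp, negative is upstream, horizontal axis) for members with a known strand. Filled points are the best peak of a gene, open points its other peaks, and the grey band is the promoter window, where 8 best summits lie 109 to 230 bp upstream; *Pramel40*, at 22652 bp downstream, falls outside the axis.

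The core of the mouse Dux site was found in 3 of the 37 promoter windows (8.11%), against 0.268% of all windows of the same length. The search for GATTNAATC was exact and covered both strands. The 3 genes were *Pramel17*, *Pramel20* and *Pramel31*, all with a peak and each with the letters GATTGAATC. At *Pramel17* the summit fell on the middle base of the core, 119 bp upstream of the start. At *Pramel31* the summit lay 61 bp from the middle of the core, farther upstream. At *Pramel20* the peak, of 92 fragments (74.2 to 113), began at 143567466, downstream of the stretch printed above, and its summit lay 254 bp after the start. Over the whole table, 46 of the 88 windows with the exact core (52.3%) held a summit. A core of the human DUX4 site, TAANNNAAT, was found in 6 of the 37 windows (16.2%), against 12.3% of all windows, at *Pramel16*, *Pramel21*, *Pramel25*, *Pramel29*, *Pramel32* and *Pramel45*.

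With 1 mismatch allowed, a setting added after the data were examined, 14 of the 37 windows (37.8%) held the mouse core, against 6.10% of all windows. The share was about the same in members with a peak, 8 of 21 (38.1%), as in members without, 6 of 16 (37.5%). A peak here is any summit inside or within 5 kb of the gene, while the match was sought in the window alone. These shares therefore do not compare windows with and without a summit. The 6 without a peak were *Pramel6*, *Pramel26* and the alike chromosome 5 copies *Pramel37*, *Pramel39*, *Pramel49* and *Pramel50*. Of the 8 windows with a summit, *Pramel23* alone held no such match. Of the 8 members with a peak and a match, *Pramel20* alone had no summit in its window. The share with a match among all 379 windows of the table that hold a summit was not computed. Among the members, the distance from summit to match varied. At *Pramel11* the summit was base 97 of the window and the match began at base 101. At *Pramel46* the summit was base 21 and the nearest match began at base 84. *Pramel24* and *Pramel11* held the same letters, GATTCACTC, and *Pramel32* held TATTGAATC. The copies are not separate cases here, since the 6 most alike windows of chromosome 5 each held the same 3 matches.

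Members with similar promoter windows did not always have similar best peaks, and several of these peaks lay outside the compared window. Between pairs of the 37 windows a median of 51.3% of bases was identical, and 7 groups of windows, with 20 members, were linked at 80% or more. In the pair *Pramel24* and *Pramel11* (86.7% identical), height and summit position were alike, as given above. In the pair *Pramel31* and *Pramel20* (83.7%), the pileups of 173 (148 to 201) and 92 (74.2 to 113) had separate intervals, and the summit lay upstream of the start at *Pramel31* and downstream at *Pramel20*. *Pramel4* and *Pramel5* (89.0%) had 186 (160 to 215) and 46 (33.7 to 61.4) fragments, also with separate intervals, both inside the gene. *Pramel14* and *Pramel30* (97.7%) had 26 and 50 fragments with overlapping intervals. The summits lay 3510 bp upstream of the start at *Pramel14* and 5646 bp downstream at *Pramel30*. *Pramel25* had 22 fragments, 428 bp after its start, where its like, *Pramel29* (90%), had no peak. At *Pramel20*, *Pramel4*, *Pramel5*, *Pramel14*, *Pramel30* and *Pramel25* no summit lay in the window. Window identity therefore does not describe the sequence at those summits.

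The chromosome 5 copies were the most alike and mostly without peaks. *Pramel37*, *Pramel39*, *Pramel43*, *Pramel46*, *Pramel49* and *Pramel50* were 93.3 to 100% identical in the window, and of these 6, *Pramel43* and *Pramel46* had a peak. *Pramel39* matched *Pramel43* in all 298 aligned bases and *Pramel49* matched *Pramel46* in all 299. Neither *Pramel39* nor *Pramel49* had a summit inside or within 5 kb. The peaks at *Pramel43* (776 bp) and *Pramel46* (727 bp) ran beyond the 300 bp window. The sequence under the rest of these peaks was not compared between copies. None of *Pramel33*, *Pramel35*, *Pramel38* and *Pramel48*, which were 77.7 to 99.7% identical, had a peak. The part played by reads shared between such copies was not tested, since neither reads nor a measure of mappability was used here.

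**Figure D3:**
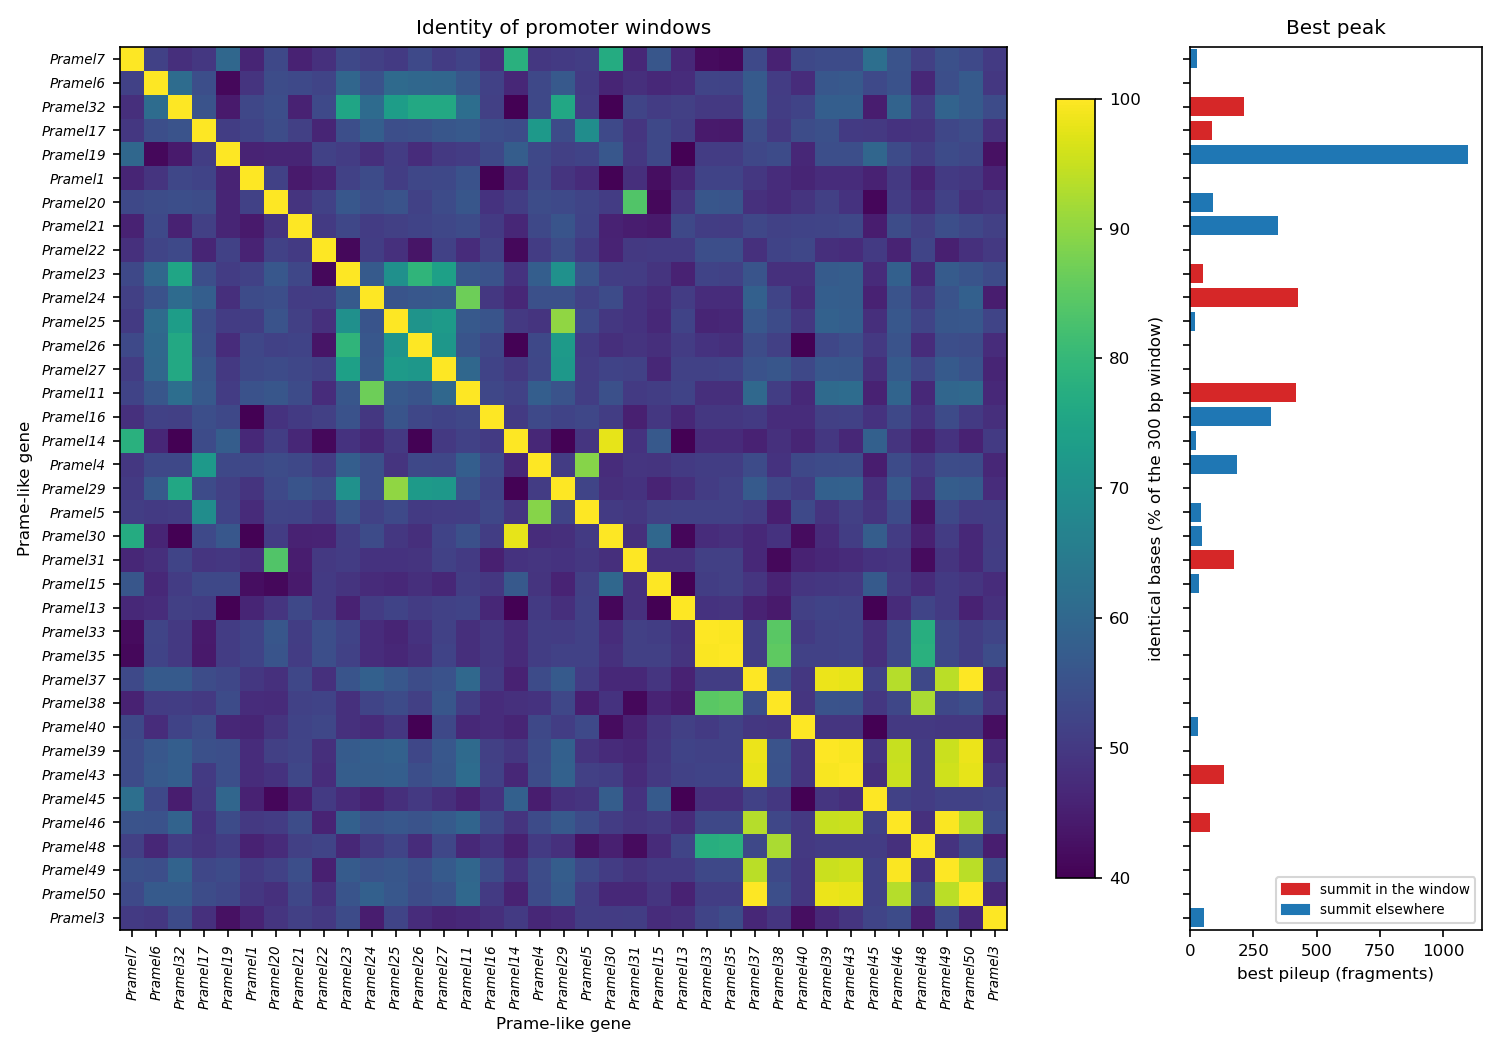
Left, identical bases between the promoter windows of 37 Prame-like genes (% of the 300 bp window, colour scale from 40 to 100); right, best pileup of each gene (fragments, linear scale from 0), red where its summit lies in the window and blue where it lies elsewhere. The bright blocks at the lower right are the chromosome 5 copies, most of which have no bar, while *Pramel24* and *Pramel11* have red bars of 428 and 419.

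The strong peaks at chromosome 4 members were long, and so were the strong peaks that lay between those members. Of the 62 member peaks, 15 (24.2%) were 1 kb or longer, against 2.61% of all peaks. Of the 16 member peaks with a pileup of 100 or more, 11 (68.8%) were that long, against 9.86% of all peaks of that height. All 11 were on chromosome 4, where 11 of 13 such member peaks reached 1 kb (lengths 552 to 3042 bp), against 14.2% of the 668 peaks of that height on the whole chromosome. In the 3-gene and 21-gene clusters of chromosome 4, all 8 peaks of that height more than 5 kb from any member were also 1 kb or longer (1051 to 2167 bp). The length was thus not particular to the peaks assigned to members. These 8 peaks included some not far beyond the limit, 5814 and 8030 bp from *Pramel19* and 5383 bp from *Pramel28*. Another lay 56263 bp from *Pramel20*. On chromosome 5 the 3 such member peaks, at *Pramel41* and at *Pramel43* with *Pramel44*, were 633 to 776 bp long. Across the 62 member peaks pileup and length rose together (Spearman rho 0.76), much as in the whole list (0.75). This is a description over peaks of 1 library that share its depth. The background around the peak exceeded 4.01 fragments, its lowest value in the list, in 22 of 49 member peaks on chromosome 4 (44.9%), against 43.1% of all peaks on that chromosome, and in 0 of 10 on chromosome 5, against 16.1% of all peaks there. The *Pramel51* peak on chromosome 12 was also above it, at 4.30 fragments. The part of this background in peak length was not tested.

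**Figure D4:**
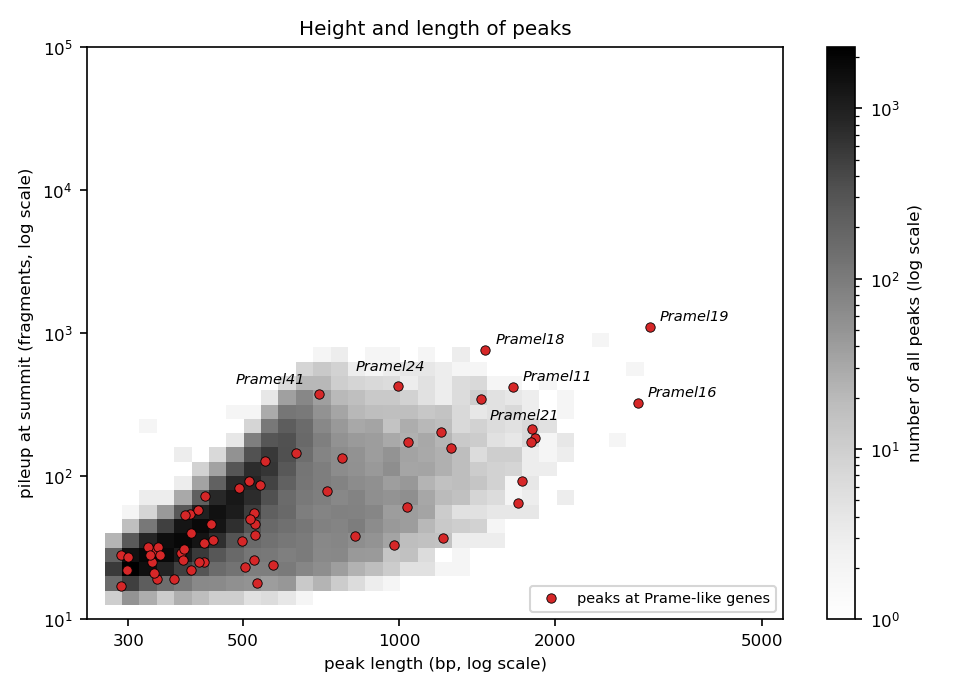
Pileup at the summit (fragments, log scale, vertical axis) by peak length (bp, log scale, horizontal axis), with the 62 peaks at Prame-like genes in red over the number of all 51356 peaks in grey. *Pramel16* (2883 bp) and *Pramel19* (3042 bp) are the longest member peaks, and *Pramel41* (700 bp) lies in a well-filled region of the grey map.

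Of 9 related genes outside the naming rule that matched the table, *Prame*, *Oog1*, *Oog4* and *AA792892* had a summit inside or within 5 kb, and *Oog2*, *Oog3*, *E330014E10Rik*, *Lrrc14* and *Lrrc14b* had none. *Prame*, the founding member of the family, had a best pileup of 72 fragments and 11.9-fold enrichment. *Oog1* (46) and *Oog4* (45), oocyte genes of the oogenesin group, and *AA792892* (45) were lower. None of the 4 reached 100 fragments, as was so for 16 of the 28 Prame-like genes with a peak. Of the partners of PRAME-like proteins, a peak was found for *Cul2*, the cullin scaffold (62 fragments), for *Eloc*, the elongin C adaptor (47), and for *Uhrf1*, a DNA methylation cofactor that is degraded through Pramel7 (69). No summit lay inside or within 5 kb of *Elob* and *Rbx1*, which encode elongin B and the ring-finger subunit. Both shares, 4 of 9 and 3 of 5, can be set beside the 43.2% of all protein-coding genes.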

How the data were processed

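The authors deposited 1 peak list in mm10 coordinates. BWA and MACS2 are named in the submitters' processing notes. Per the file headers, MACS2 2.1.0.20151222 set the antisera library against the control, using paired-end fragments, a q-value of 0.01 and 1 fragment per position. Among the deposited columns, pileup is a signal (antisera fragments at the summit), the fold enrichment is a ratio to local background, and −log10 p-values and q-values accompany each peak. The sources used here give no mapping settings.

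From these, summits were assigned to genes within 5 kb with Python 3.11.15 and pandas 2.3.3. The local background was recovered from pileup and fold with a pseudocount of 1, and the recomputed Poisson p matched within 1% at the 55 of 62 member peaks where it was finite. Promoter windows were aligned with Biopython 1.88 (match 2, mismatch −1, gap opening −5, extension −0.5, free ends), and identity is the percent of the window. The assignment and motif search were tested on simulated data.

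Groups followed the antibody labels. Members and lists were chosen with earlier results of these data known, and the limits of 100 fragments, 1 kb and 80% identity were set after values were seen. Values in full were given for the 12 members of highest pileup and the strongest of each cluster. Protein identity was not analysed here. Strand came from the promoter table, so 10 members have no distance from a transcript start. The search with 1 mismatch was chosen after seeing the data. Intervals are 95% Poisson and cover counting error only.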

Additional observations from a re-analysis of the deposited data

How the results depend on the processing

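The count of 28 genes with a peak lay between 21 and 37 in 10 of 12 alternatives, the lowest being 21 with the summit outside the gene. It was 12 with the strongest 10% of peaks and 17 with the summit inside the gene. The median best pileup, 85 fragments, was 334 with the strongest 10% and 46 with the summit inside the gene, and otherwise 83 to 92. The share of protein-coding genes with a peak, 43.2%, was 42.9% at a −log10 q of at least 5, 43.6% with any overlap and 43.1% without peaks of high background. It was 39.8% at a −log10 q of at least 10, 8.88% in the strongest 10%, 35% within 1 kb, 37.3% within 2 kb, 62.3% within 20 kb, 32.3% inside the gene, 17.6% outside it within 5 kb, 33.4% over all positioned genes and 37% over coding genes of the family's length range. The family's own share was above that of coding genes in these settings, being 57.4%, 25.5%, 46.8%, 53.2%, 78.7%, 36.2% and 44.7% from −log10 q of at least 10 to outside the gene. It was closest inside the gene. Joining genes under 250 kb apart gave 8 clusters in place of 7, dividing the chromosome 5 cluster into 12 genes, of which 5 had a peak, and 6 genes, of which 1 had a peak. The mouse core motif was held by 8.11% of member promoters, by 14.3% of those with a peak, by 0.268% of all promoters and, with 1 mismatch, by 37.8% of member promoters. No paired analysis was possible because each group had 1 library, and for the same reason no replicate could be left out. Depth limits the weakest peaks, whose pileups of 17 to 30 fragments have wide intervals.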

Other observations

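Several strong peaks lay between the copies and more than 5 kb from any member. In the chromosome 5 cluster a peak of 508 fragments (102-fold) at chr5:93699068-93699997 lay 28183 bp from *Pramel34*, and another of 495 fragments (98.9-fold) at chr5:94722128-94722893 lay 95732 bp from *Pramel44*. Both were higher than any member peak of that cluster, of which the highest was 373. Beside *Pramel19* on chromosome 4, 2 further peaks of 394 and 252 fragments lay 8030 bp and 5814 bp outside the gene, beyond the 5 kb limit. In the large chromosome 4 cluster the highest peak away from members had 209 fragments and lay 139 bp from *Gm13043*, a protein-coding gene that the naming rule does not include.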
